A study of Mus musculus with 149 samples.

Results

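The cytosolic ribosomal protein genes were followed in single liver cells. They were taken by name: every gene of the deposited table whose symbol begins with Rpl or Rps, or Rplp for the stalk, followed by a digit, without the Rps6k kinases. This gave 84 genes of 20308 mouse genes. By textbook role they divide into 43 proteins of the large subunit, 30 of the small subunit, 3 stalk proteins, 7 paralogs of other members and 1 gene that shares only the prefix (Rps19bp1, named for its binding to Rps19). Of the 84, 81 had a value above 0 in at least 20% of the cells and are called measured. The other 3, the paralogs Rpl10l, Rpl39l and Rpl3l, were listed at 0 in every cell.

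All cells came from the liver of 1 wildtype male C57BL/6 mouse of 8 weeks, dissociated by perfusion and enriched for hepatocytes, the parenchymal cells of the organ, by low-speed spins. They were caught on Fluidigm C1 microfluidic chips, in which single cells sit in traps and are lysed there, with ERCC spike-in RNA (synthetic RNAs) in the lysis mix. Cells of 17 to 25 µm went to the large chip, which gave 80 cells. The medium chip took 10 to 17 µm and gave 30, while 39 came from a small chip for 5 to 10 µm. The labels mark all of them as primary hepatocytes. With 1 animal and 1 chip of each size there are no replicates. Differences therefore describe these cells, without a test, and a chip cannot be told apart from the size of the cells it caught.

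A ribosome is built from a large and a small subunit, each a folded ribosomal RNA dressed with proteins present mostly at 1 copy. The small subunit decodes the mRNA, the large one makes the peptide bond, and the acidic stalk recruits the translation factors that burn GTP. Most mRNAs of ribosomal proteins begin with a stretch of pyrimidines, the 5′ terminal oligopyrimidine tract, through which mTOR signalling and the binding protein Larp1 set their translation and stability together. Hepatocytes make the proteins of the blood plasma and hold much rough endoplasmic reticulum.

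The deposited values are normalised expected counts, here called values, and the read depth behind them is unknown. Of a large-chip cell's summed values, spike-ins took a median of 3.66% (lowest 1.24%, highest 92.3%), against 82.7% for medium-chip and 82.8% for small-chip cells. The number of mouse genes above 0 had medians of 7389.5, 2306.5 and 3087 in the same order. Every one of the 149 cells held at least 3 of 8 hepatocyte markers at a value of 10 or more. In addition, 23 cells (12 of the large chip, 5 of the medium chip and 6 of the small chip) held 3 or more markers of another liver cell type at that level. These were endothelial markers in 12 cells, Kupffer cell and macrophage markers in 6, cholangiocyte markers in 5 and stellate cell markers in 1, with 1 cell in more than 1 of these counts. Whether such a trap held more than 1 cell was not tested. The main results on shares, chips, spike-in share, co-variation, spread and column order are given with and without these cells.

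Per kilobase of coding length, the medians of the large-subunit and small-subunit genes lay close together, while single members ranged widely. In the large chip the median member had a mean value of 604 per kb. The large-subunit genes had a median of 599 per kb (lowest 128, highest 9787), the small-subunit genes a median of 675 (lowest 20.2, highest 1467), and the stalk genes lay between 468 and 689. Rpl41 and Rps27 stood at the ends of this scale. Rpl41, which encodes the shortest ribosomal protein, reached 9787 per kb, with a mean value of 734 on a coding length of 75 bases. Rps27, a zinc-binding protein of the small subunit, had 20.2 per kb, the lowest level of all. Other low members were Rpl24, which lies at the bridge between the subunits (128 per kb), the paralog Rpl22l1 (129) and the non-ribosomal Rps19bp1 (32.2). Rps29 (1467) and Rps14 (1443) followed Rps27l (2300) at the upper end. The order of members depends on the length used. Rpl15 had 439 and Rpl10a 320 per kb of coding length, but 140 and 284 per kb of the whole transcript.

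**Figure D1:**
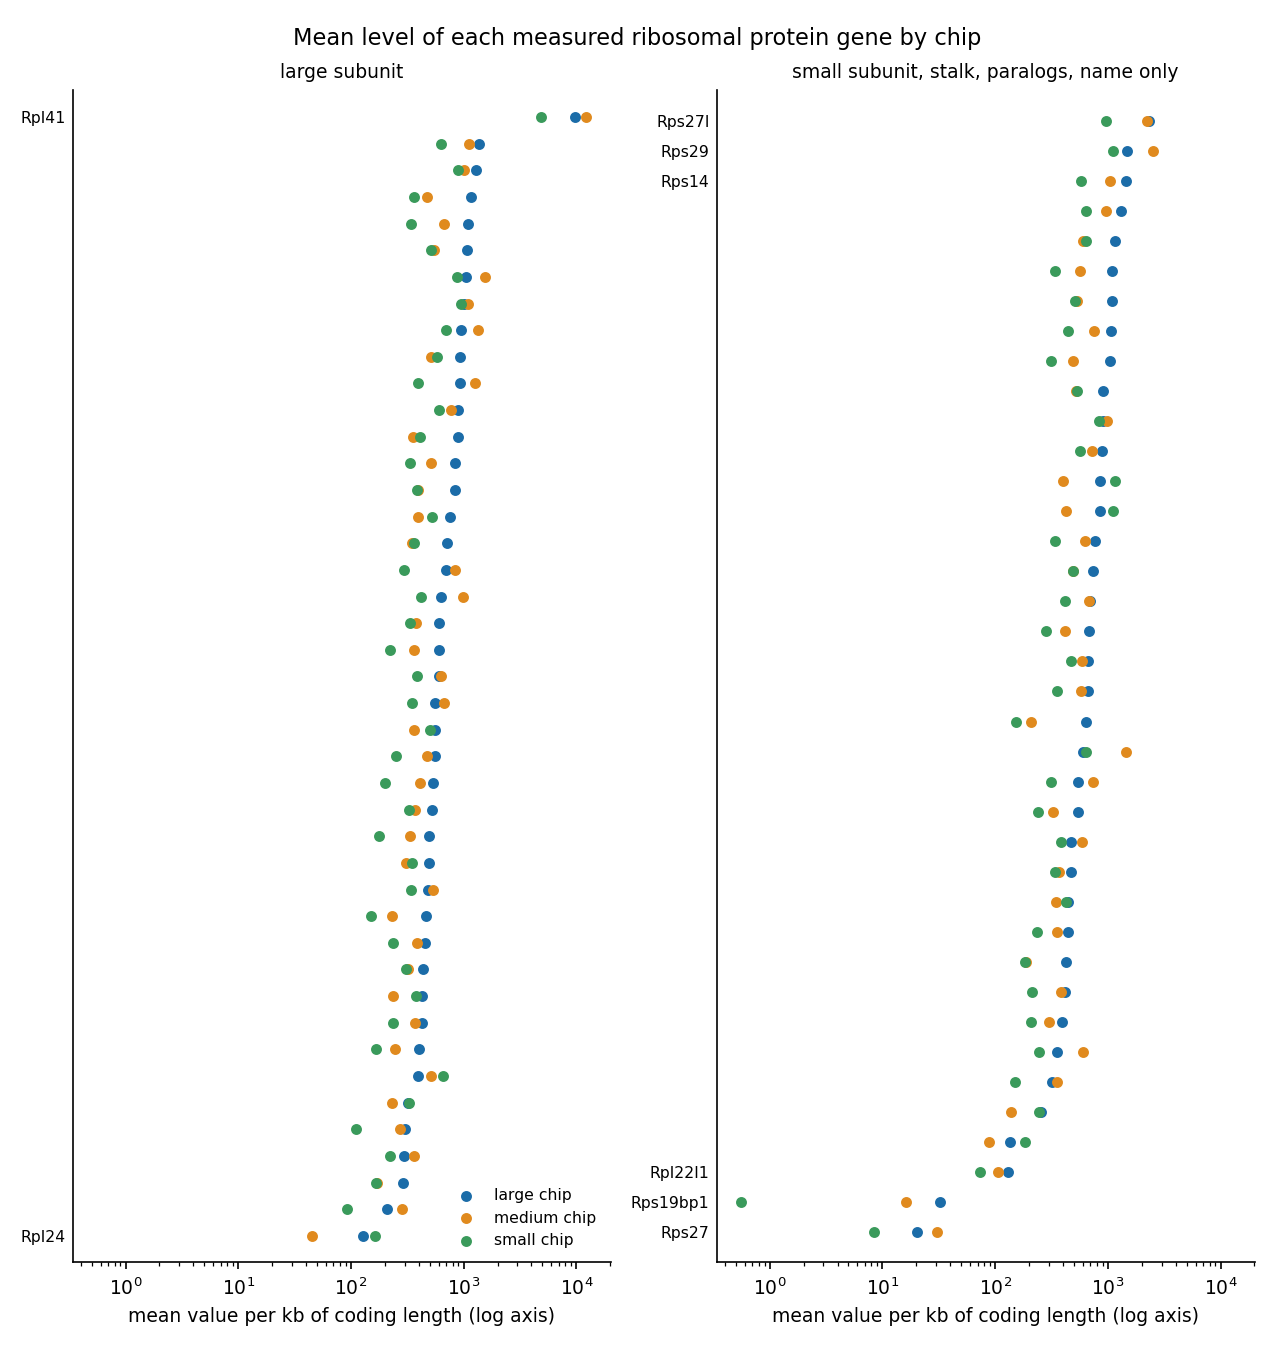
Mean value per kb of coding length (log axis) of the 81 measured ribosomal protein genes in the large (blue), medium (orange) and small (green) chips, with no error bar since each chip is 1 sample. Genes run down the page by their large-chip level, the 4 highest and 4 lowest named, and in that chip the median gene lies at 604 per kb, with Rpl41 (9787) above the rest and Rps27 (20.2) and Rps19bp1 (32.2) below.

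In the pair of Rps27 and its paralog Rps27l the paralog was the higher, and their coding sequences are shown because the levels turn on how well reads of each can be told apart. Both are 252 bases long without the stop codon and are read from GENCODE release M21 on mm10 (GRCm38). Rps27l lies at chr9:66946086-66949516 on the plus strand, and Rps27 at chr3:90212522-90213651 on the minus strand. Capitals mark the 60 bases at which the aligned sequences differ.
Rps27l: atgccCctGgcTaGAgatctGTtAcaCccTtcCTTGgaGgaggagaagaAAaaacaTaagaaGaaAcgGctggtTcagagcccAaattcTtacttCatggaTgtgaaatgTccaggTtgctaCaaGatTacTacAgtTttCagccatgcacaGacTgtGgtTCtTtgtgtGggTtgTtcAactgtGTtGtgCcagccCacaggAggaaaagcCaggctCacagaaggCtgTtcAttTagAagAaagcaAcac
Rps27: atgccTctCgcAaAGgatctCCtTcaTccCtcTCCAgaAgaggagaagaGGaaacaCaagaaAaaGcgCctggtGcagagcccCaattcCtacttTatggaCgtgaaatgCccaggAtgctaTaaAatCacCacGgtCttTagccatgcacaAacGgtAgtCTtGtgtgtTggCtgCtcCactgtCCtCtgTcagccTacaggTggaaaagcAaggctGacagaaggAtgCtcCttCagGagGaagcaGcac

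The sequences were identical at 76.2% of bases, and their longest shared run was 11 bases. Rps27l ran from 0 to 8944 with a median of 399 over large-chip cells, from 0 to 5460 with 281 over medium-chip cells and from 0 to 1175 with 115 over small-chip cells, and was above 0 in 79 of 80, 28 of 30 and 35 of 39 cells. Rps27 had a median of 0 in every chip and highest values of 154, 42.7 and 37.8, and was above 0 in 26, 10 and 5 cells. In each chip the highest Rps27 value lay below the median of Rps27l. Mean values were 580, 563 and 243 for Rps27l and 5.09, 7.71 and 2.10 for Rps27. A further annotated gene, Rps27rt on chromosome 9, has a coding sequence identical to that of Rps27 at all 252 bases and has no row in the table, so the value of Rps27 is uncertain: how reads shared by this pair were assigned is not given in the sources used here. The annotation also holds 285 pseudogenes named after ribosomal protein genes, and the same limit applies to any member with a near-identical copy.

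Among the other paralogs, Rpl36al was above its partner Rpl36a in the medians of the large chip (281 and 90.1), and the coding sequences were identical at 87.7% of aligned bases with a longest shared run of 24. In the medium chip the same medians were 2.52 for Rpl36al and 0 for Rpl36a, and in the small chip 6.39 and 0. Rpl22l1 and Rpl7l1 lay below their partners in the large chip, at medians of 33.4 against 58.7 for Rpl22 and 79.8 against 521 for Rpl7. Their coding sequences share 70.2% and 55.1% of aligned bases with those partners. In the small chip the order of Rpl7l1 and Rpl7 turned, with medians of 17.7 and 3.68.

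Single members with well-known roles show how the values fall over cells. Rps6, the small-subunit protein that S6 kinases phosphorylate downstream of mTOR, ran from 0 to 8191 with a median of 546 over large-chip cells, from 0 to 3738 with 22.4 over medium-chip cells and from 0 to 5324 with 7.43 over small-chip cells. Rpl3, which lies by the peptidyl transferase centre, had medians of 394 (0 to 5820), 24.3 (0 to 5818) and 16.0 (0 to 3561) in these chips. For both, the large-chip median was the highest and the ranges overlapped throughout. Rpl5, which carries the 5S ribosomal RNA into the large subunit, had 457 (0 to 3080), 39.9 (0 to 1385) and 113 (0 to 3043), so its small-chip median lay above the medium-chip one. Rpl10a, another large-subunit protein, had 151 (0 to 1403), 9.77 (0 to 1335) and 23.8 (0 to 1844), in the same order. The ranges of these 4 genes overlapped between all chips, each beginning at 0.

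The stalk proteins differed among themselves. Rplp0, the base of the stalk, had medians of 330 (4.47 to 4594), 9.35 (0 to 4149) and 7.34 (0 to 6274). Rplp1 had 145 (0 to 2319), 14.2 (0 to 2162) and 39.7 (0 to 726), and Rplp2, its dimer partner, 138 (0 to 3414), 122 (0 to 815) and 81.2 (0 to 1123). The median of Rplp2 was thus close in all chips while that of Rplp0 was far higher over large-chip cells.

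Ribosomal protein genes took about 1% of the summed mouse-gene values in all 3 chips. For large-chip cells the share had a median of 1.14% (lowest 0.559%, highest 5.06%), for medium-chip cells 1.03% (0.30% to 3.57%) and for small-chip cells 1.05% (0.154% to 3.58%). The 3 distributions overlapped over most of their range, and the medians differed by less than the distance between the quartiles of any chip. Only the low end reached further down in the small chip. The number of members above 0 per cell differed more, with medians of 80 for large-chip, 57.5 for medium-chip and 48 for small-chip cells. Of the 81 measured members, 76 were above 0 in 90% or more of the large-chip cells, 6 of the medium-chip cells and 2 of the small-chip cells. The fall was not particular to members. The median member was above 0 in 95%, 70% and 64.1% of large-chip, medium-chip and small-chip cells, and the median of all measured genes in 72.5%, 30% and 30.8%. Where spike-ins made up under 50% (64, 7 and 12 cells) the median shares were 1.07%, 1.17% and 1.10% and the median numbers of members above 0 were 80, 79 and 77.5.

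**Figure D2:**
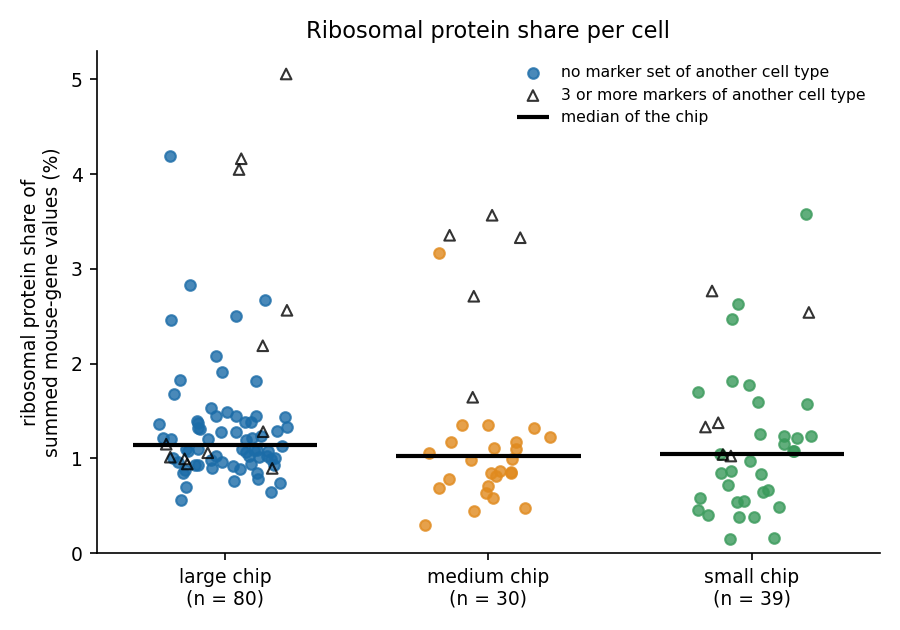
Share of the summed mouse-gene values taken by the 84 ribosomal protein genes, in percent, with 1 point per cell, in the large, medium and small chips. Bars are medians (1.14%, 1.03% and 1.05%), and open triangles are cells with 3 or more markers of another cell type, which include 3 of the 4 highest cells of the large chip and 4 of the 5 highest of the medium chip. The highest cell of the small chip (3.58%) is not among them.

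In the large and medium chips, most of the cells with the highest shares held markers of another cell type. Large-chip cells 7, 64 and 31 had 5.06%, 4.16% and 4.05%, and each held 14, 14 and 13 of 14 endothelial markers at 10 or more. Medium-chip cells 23, 21, 1 and 4 had 3.57%, 3.36%, 3.33% and 2.71%, with 5, 3, 9 and 11 of 11 Kupffer cell and macrophage markers, and small-chip cell 1 had 2.77% with 11 of 11. All of these cells also held 5 or more of the 8 hepatocyte markers. Without any such marker set, large-chip cells 73 and 15 still had 4.19% and 2.83%, and medium-chip cell 8 had 3.17%. Among the highest small-chip cells, cells 26, 2 and 6 had 3.58%, 2.63% and 2.47% without such a set. Small-chip cell 39 had 2.54% with 14 endothelial markers. Markers did not mark high shares throughout: large-chip cells 48, 46 and 28 held 11, 9 and 11 endothelial markers at ribosomal protein shares of 1.15%, 1.01% and 0.895%. Those 3 cells had spike-in shares of 1.93%, 2.07% and 1.24%, while cells 7, 64 and 31 had 34%, 28.6% and 52.4%.

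Over all cells, the summed endothelial markers ran from 163 to 131941 in the 12 cells with 3 or more of them and from 0 to 1143 in the other 137, and the Kupffer cell and macrophage markers from 76 to 106913 in 6 cells and from 0 to 494 in the other 143. Leaving the 23 cells out gave median ribosomal protein shares of 1.12% (68 cells), 0.866% (25 cells) and 0.973% (33 cells), large chip first and small chip last. Single members followed the same cells. Large-chip cells 7, 64 and 31 held the highest value of the chip for 25, 22 and 11 of the 81 measured members, where the same cells held the highest value of 11.3%, 12.3% and 5.87% of all measured genes. In the medium chip, cells 21, 1 and 4 held it for 35, 18 and 11 members and for 12.2%, 8.63% and 7.85% of all measured genes. Medium-chip cell 21 had the highest mouse-gene sum of its chip, 4076620 against a median of 966651. With every cell rescaled to the same sum, cells 7, 64 and 31 held the highest value for 11, 9 and 10 members (7.85%, 8.36% and 5.31% of all genes), and medium-chip cells 21, 1 and 4 for 6, 9 and 4 (4.55%, 6.21% and 5.63%). The part of these cells' marker RNA in the values of single members was not tested.

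How many members differed between chips depended on the summary and on single cells. Of the 81 measured members, 31 had a mean 2-fold or more higher in the large than in the small chip and 0 lower, where 41.9% of all measured genes were higher and 12.8% lower, so the share of members higher was near that of all genes. The median log2 ratio was 0.85 over members and 0.72 over all genes. In the large over the medium chip, 11 members were higher (37.5% of all genes) and 1 lower (12.7%), with a median log2 ratio of 0.38 for members and 0.59 for all genes. Without the 23 cells that hold other markers, 40 members were higher in the large than in the medium chip (40.3% of all genes) and 0 lower (11%), and 34 were higher in the large than in the small chip (44.2%).

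Among the largest ratios of the large over the small chip were those of Rps19bp1 (log2 3.58), Rps4x (2.05) and Rps23 (1.69), the last being a protein of the decoding centre. Rps4x, the X-linked copy of a small-subunit gene, ran from 0 to 6192 with a median of 277 over large-chip cells, from 0 to 1681 with 2.42 over medium-chip cells and from 0 to 1099 with 2.80 over small-chip cells. Its values overlapped between all chips, since each holds cells at 0. Rps19bp1 was above 0 in 52 of 80 large-chip cells and in 2 of 39 small-chip cells, with highest values of 603 and 4.85. Its ratio was 2.72 without the highest cell of each chip, since large-chip cell 17 had 603 and the next 68.2.

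At the other end, Rpl11 had the lowest ratio (-0.73), followed by Rps3a1 (-0.44), Rpl7l1 (-0.42) and Rps9 (-0.39). Rpl11, which binds the 5S ribosomal RNA with Rpl5 and, when free, binds the p53 regulator Mdm2, had medians of 177 (0 to 1794), 24.8 (0 to 2084) and 6.55 (0 to 3488) over large-chip, medium-chip and small-chip cells. Its large-chip mean of 212 was below the small-chip mean of 352 although its large-chip median was higher. The negative ratios of Rps3a1 and Rps9 rested on small-chip cell 26, which had 22278 and 15787 where the next cells had 4185 and 2119. Without the highest cell of each chip their log2 ratios were 0.81 and 0.84. That of Rpl7l1, whose highest small-chip value was 2055 in cell 13 and the next 1176, was then 0.14, and that of Rpl11 remained negative at -0.49. Done so for every gene, 50 members were higher in the large than in the small chip (60.4% of all genes) and 0 lower (2.86%), and 29 were higher in the large than in the medium chip (56.2%) and 0 lower (2.71%). With the mean of log2(value + 1) in place of the log2 of the mean, 80 members were higher in the large than in the small chip (65.6%) and 79 than in the medium chip (65%).

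With cells under 50% spike-in alone, fewer members were higher in the large chip and some were lower. There 4 members were higher in the large than in the small chip (26.7% of all genes) and 8 lower (25%), and 0 were higher in the large than in the medium chip (24.8%) and 13 lower (17.3%). The median log2 ratio of the large over the medium chip was -0.49 over members and 0.12 over all genes, with 64 large-chip and 7 medium-chip cells behind them. This difference shrank without the cells that hold other markers, which among the 7 are cell 21 alone. Cell 21 had summed ribosomal protein values of 136784, where the highest of the other 6 had 25021. With such cells left out of each chip (53, 6 and 9 cells kept), the median was 0.047 over members and 0.089 over all genes, with 1 member higher in the large than in the medium chip (21.9% of all genes) and 3 lower (16%). Against the small chip 17 were then higher (31.3%) and 9 lower (20.6%).

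The spike-in share of a cell is the part of its summed normalised values taken by ERCC, which need not equal their part of its library. The members were set against it within each chip. The large-chip cells fell into 2 clusters, 57 cells between 1.24% and 6.69% and 23 cells between 28.6% and 92.3%, so each was taken on its own. The deposited values of the clusters also differ in scale, with larger sums of mouse genes and spike-ins together in the 23 cells. Mouse genes and spike-ins summed to 1781660 and 23731 in cell 35 of the 57, and to 3533910 and 1823460 in cell 7 of the 23. The sum of mouse genes alone was not larger throughout, with 656419 beside 3719910 for spike-ins in cell 73 of the 23. In the 57 cells the ribosomal protein share was higher where the spike-in share was higher, with a Spearman rho of 0.69 (Pearson r 0.61, and 0.59 without the 2 cells farthest from the median spike-in share). Without cells that hold other markers rho was 0.73 (50 cells). Shares in these cells ran from 0.559% to 1.92% with a median of 1.06%. In the 23 other cells the median was 1.83% (0.644% to 5.06%) and rho was -0.16, or 0.29 without the 5 that hold other markers (18 cells). Both clusters share 1 chip and 1 spike-in mix, and the points of each are cells of 1 animal.

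The medium and small chips held 4 cells each under 10%, too few for a value, with shares from 0.998% to 1.32% and from 1.05% to 1.33%. Their other cells gave a rho of -0.26 (26 cells) and -0.042 (35 cells), and of 0.079 (21 cells) and 0.056 (30 cells) without those that hold other markers. The sign of rho in cells of 10% or more thus turned in each chip when these cells were left out. In the medium and small chips the values were then too small to give a direction. In the 30 small-chip cells Pearson r was -0.038 without the 2 cells farthest from the median spike-in share. Over all cells of each chip, clusters mixed, rho was 0.73 for large-chip, -0.31 for medium-chip and -0.097 for small-chip cells, a mean of 0.11 ± 0.55 (SD over 3 chips). The chips hold the clusters in different numbers, so these pooled values are not comparable, and whether the relation of the 57 cells holds in the other chips could not be read from 4 cells each. Summed values as deposited, not shares, had rho 0.39, -0.86 and -0.86.

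**Figure D3:**
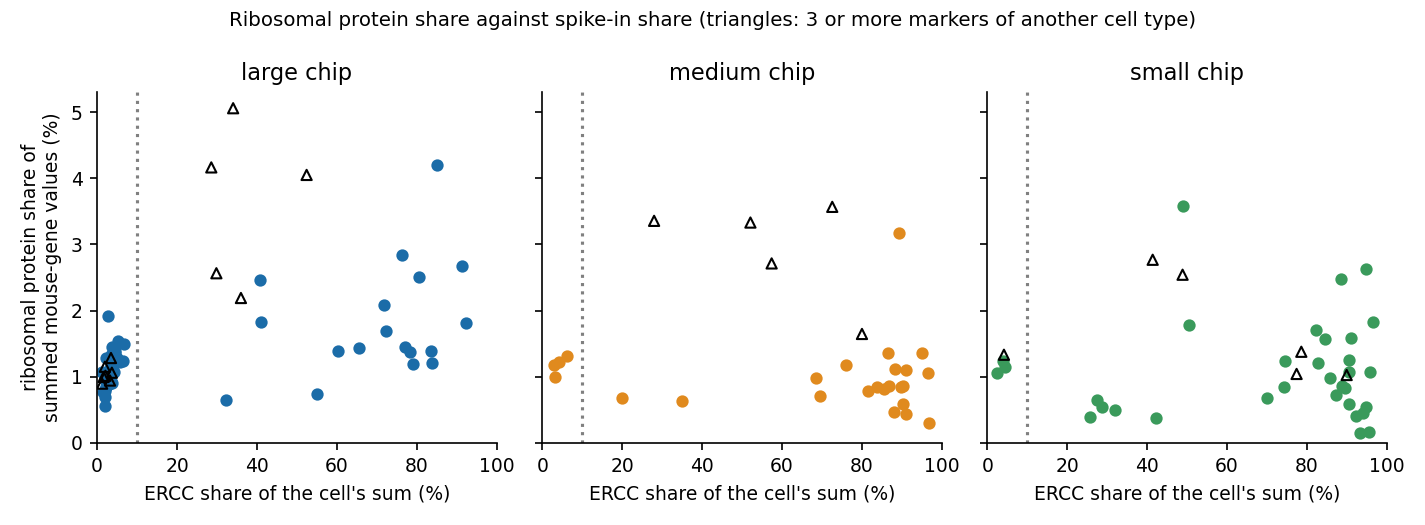
Ribosomal protein share of the summed mouse-gene values (%) against the ERCC share of the cell's sum (%), 1 point per cell, in the large, medium and small chips, with a dotted line at 10%. In the large chip the 57 cells left of the line lie between 0.559% and 1.92%, and the 23 others between 0.644% and 5.06%.

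Single members, read by their values as deposited and not by shares, showed a like relation in the large chip. In its 57 cells with little spike-in, 63 of 81 members had a rho of 0.2 or more with the spike-in share (17.2% of all measured genes) and 0 had -0.2 or less (12.4%). The median rho was 0.36 over members and 0.0029 over all genes. Rpl36 of the large subunit reached 0.67, Rpl3 0.58 and the stalk protein Rplp2 0.55. Rps6 had 0.45 with a median value of 563 over these cells. The members with the lowest rho were Rpl7l1 (-0.072), Rpl11 (-0.051), Rps19bp1 (-0.049) and Rps27 (0.030). The other stalk genes, Rplp0 and Rplp1, had 0.095 and 0.13, so the stalk was split.

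In the 23 cells with more spike-in, values as deposited had the other sign for nearly all members. There 80 members had -0.2 or less (76.6% of all genes) and 0 had 0.2 or more (0.94%). The median was -0.58 over members and -0.36 over all genes. Without the 5 cells that hold other markers, 66 members had -0.2 or less (60.2% of all genes), with medians of -0.38 and -0.26. The ribosomal protein share, another measure, had a rho of -0.16 in the 23 cells and of 0.29 without those 5. Within the medium and small chips the medians over all cells were -0.64 for members and -0.48 for all genes, and -0.64 and -0.41. Asked for 1 sign in all 3 chips and a mean of 0.2 or more in size, 48 members fell with the spike-in share and 0 rose, where 87.9% of all genes fell and 0.0908% rose. Without cells that hold other markers 62 fell (88.1%). Taking cells under 50% spike-in alone, 21 members rose (2.1% of all genes) and 0 fell (34.3%). The number of members above 0 had a rho with the spike-in share of -0.65 for large-chip, -0.86 for medium-chip and -0.93 for small-chip cells.

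**Figure D4:**
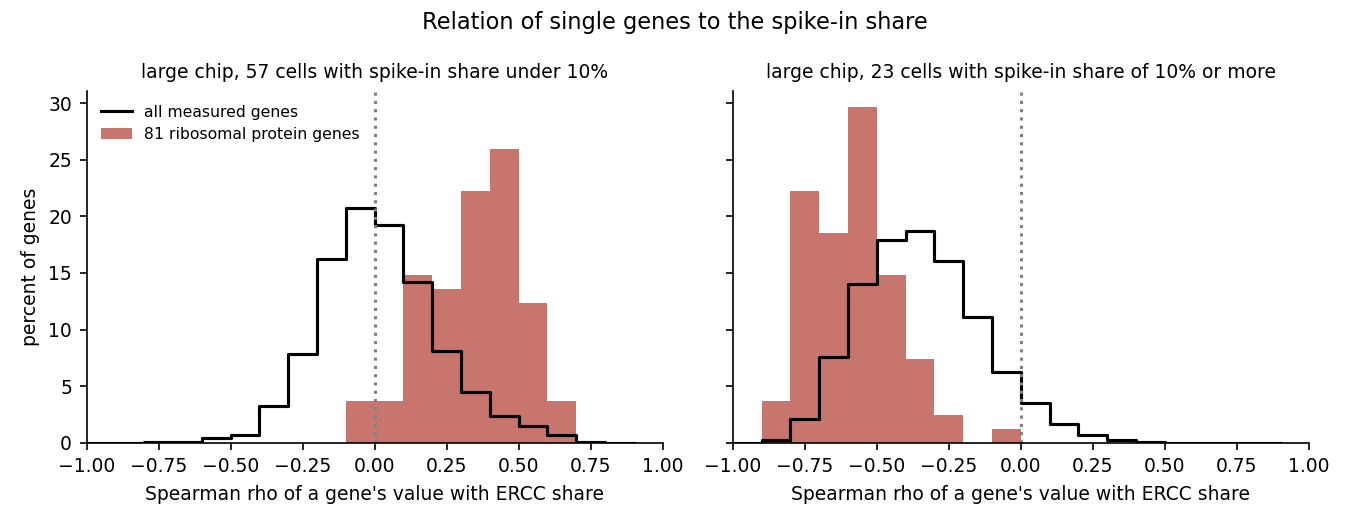
Percent of genes by Spearman rho between a gene's value and the ERCC share of the cell, for 81 ribosomal protein genes (red bars) and all measured genes (black line; 8813 in the left panel, 8722 with a defined rho in the right one), in the 57 large-chip cells under 10% ERCC share (left) and the 23 others (right). Members lie right of all genes in the left panel (medians 0.36 and 0.0029) and left of them in the right panel (-0.58 and -0.36).

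By the mean rho over the 3 chips, the members that fell most with the spike-in share were Rpl7l1 (-0.61 ± 0.28, SD over 3 chips), Rpl22l1 (-0.60 ± 0.17), Rplp0 (-0.56 ± 0.31) and Rpl35a (-0.55 ± 0.36). The least negative were Rps27 (-0.12 ± 0.12), Rps12 (-0.29 ± 0.25), Rpl37 (-0.31 ± 0.55) and Rps15 (-0.32 ± 0.35). Rps27 was above 0 in 41 of 149 cells. Rpl37 had 0.32 over large-chip cells, -0.58 over medium-chip and -0.67 over small-chip cells, and so differed in sign.

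Members varied together from cell to cell. Over the 3240 pairs of measured members the median Spearman rho was 0.41 for large-chip, 0.50 for medium-chip and 0.49 for small-chip cells, where pairs of all measured genes had 0.20, 0.30 and 0.24. In the large-chip cells under 50% spike-in the members had 0.41 while all genes had 0.038. With every cell rescaled to the same mouse-gene sum, the medians over members were 0.34, 0.35 and 0.35 (0.18, 0.25 and 0.19 over all genes), and without cells holding other markers they were 0.36, 0.43 and 0.44 (0.22, 0.33 and 0.24). With both changes the medium chip had 0.30 over members and 0.28 over all genes. All cells of a chip share depth and spike-in differences, which enter every pair. The pairs of all genes were not matched for level. In the large chip the median of mean values was 289 over members and 23.4 over all genes. The median gene was above 0 in 95% and 72.5% of its cells. The part of level in the gap between members and all genes was not tested. The members closest to the rest in the large chip, by rho of a member with the mean of the others, were Rps29 (0.78), Rpl37a (0.70), Rpl41 (0.67), Rpl36 (0.66) and Rpl13a (0.65). The farthest were Rpl24 (0.015), Rps27 (0.035), Rpl22l1 (0.072) and Rps19bp1 (0.097).

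Because the members moved together, their promoters were read from RefSeq on GRCm38.p6, 250 bases before to 50 after each start; 72 starts of 61 measured members were matched. A run of 8 or more C or T bases that reached within 20 bases of the start stood in 34 of 72 (47.2%), and in 21.2% of 32851 starts of all genes. The median longest run was 7 bases in members and 5 in all genes. Searched on both strands, CCGGAAG, a core bound by ETS factors, was in 34.7% of member promoters and 8.86% of all, AAGATGGC, bound by YY1, in 11.1% and 2.75%, and TATAAA, the TATA box, in 9.72% and 13.6%. CCGGAAG and AAGATGGC can overlap by the letters AAG. A match describes letters only.

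The 100 bases around the start (70 before, 30 after) are shown for the 4 members of highest co-variation that have 1 RefSeq start and lie on a chromosome whose sequence is printed here. Capitals mark CCGGAAG on either strand, and a C or T run of 8 or more within 20 bases of the start. Rpl37a is at chr1:72711190-72711289 (plus strand), Rpl41 at chr10:128549139-128549238 (minus strand), Rpl13a at chr7:45128716-45128815 (minus strand) and Rpl26 at chr11:68901496-68901595 (plus strand).
Rpl37a: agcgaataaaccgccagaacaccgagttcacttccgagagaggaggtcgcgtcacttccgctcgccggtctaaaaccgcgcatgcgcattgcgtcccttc
Rpl41: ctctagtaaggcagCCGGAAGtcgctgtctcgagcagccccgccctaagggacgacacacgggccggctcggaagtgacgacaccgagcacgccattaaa
Rpl13a: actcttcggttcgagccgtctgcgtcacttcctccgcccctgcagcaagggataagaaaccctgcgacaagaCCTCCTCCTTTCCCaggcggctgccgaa
Rpl26: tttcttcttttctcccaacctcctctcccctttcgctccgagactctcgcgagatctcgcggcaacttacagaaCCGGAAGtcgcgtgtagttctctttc

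Rpl13a carried a pyrimidine run of 14 bases at its start. Rpl41 and Rpl26 each held the ETS core once and no such run, with longest runs of 3 and 4 bases within 20 bases of the start, and Rpl37a held neither. By this rule the 4 members, alike in their variation over cells, did not share either feature. The printed windows of Rpl26 and Rpl37a both end in C and T bases that begin outside the 20 bases. The reading of runs thus rests on that limit and on the annotated start.

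The spread of members over cells depended on how it was measured. In the large chip the median coefficient of variation was 1.56 over members and 2.14 over all measured genes, and the members had higher means (median 289, against 23.4 for all genes). Set against a running median over genes of like mean, 20 of 81 members lay below it (49.8% of all genes) and the median member stood 0.24 above it on the log2 scale. In the medium and small chips 59 and 69 members lay below the running median (49.8% and 49.6% of all genes), with medians of -0.23 and -0.52. Without cells that hold other markers the medians were 0.14 for large-chip, -0.45 for medium-chip and -0.47 for small-chip cells. Of the 81 members, 66 had their large-chip maximum in such a cell, namely in cells 7, 64, 31, 24 and 71. The same cells held the maximum of 11.3%, 12.3%, 5.87%, 11.6% and 7.76% of all measured genes. With the SD of log2(value + 1) in place of the coefficient of variation the signs turned in every chip: -0.17, 0.23 and 0.42.

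Rpl7l1 was the steadiest member of the large chip for its level (-0.97), with Rpl15 (-0.60), Rps26 (-0.54) and Rpl38 (-0.54), the last needed for patterning of the axial skeleton in mouse embryos. Rpl15 had a lowest value of 0, a median of 233 and a highest of 1517 in the large chip. Rps19bp1 (1.22), Rps3 at the mRNA entry channel (1.02), Rpl8 (0.83) and Rps19, a gene altered in Diamond-Blackfan anaemia in humans (0.80), were the most spread. Rps3 had a median of 315 in the same cells and a highest value of 8830 in cell 64, which holds 14 endothelial markers; the next cell had 4646.

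The columns of the deposited table are in an order that no sample label explains, and the table's name carries the word Wavecrest. Whether the order was made from the values of genes such as the landmarks below is not given. The landmarks are therefore no independent check on this order. Along it, within the large chip, Cyp2e1, a pericentral landmark, had a rho of 0.86 and Glul 0.53, and the periportal landmarks Cyp2f2 and Hal had -0.81 and -0.85. In the medium and small chips Cyp2f2 had -0.66 and -0.72, Hal -0.54 and -0.50, and Cyp2e1 0.32 and 0.58, while Glul had -0.11 and 0.17. The spike-in share also moved along the order, with rho -0.37 for large-chip, 0.37 for medium-chip and 0.27 for small-chip cells. Within the 57 large-chip cells of little spike-in it had -0.61, and its part in the relations of members with the order was not tested.

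In the large chip the median ribosomal protein share was 1.09%, 1.32%, 1.39%, 1.24% and 0.934% over 5 successive blocks of 16 cells, from the Cyp2f2 end to the Cyp2e1 end, with median spike-in shares of 4.03%, 4.03%, 57.7%, 3.06% and 2.32%. The blocks overlapped: the first ran from 0.893% to 2.56% and the last from 0.559% to 1.92%. The share had a rho with the order of -0.20 for large-chip, -0.052 for medium-chip and 0.13 for small-chip cells, and -0.37 in the 57 large-chip cells. Of the 81 members, 12 fell along the order with 1 sign in all chips and a mean rho of -0.2 or less (15.4% of all genes) and 0 rose (0.692%), a share near that of all genes.

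**Figure D5:**
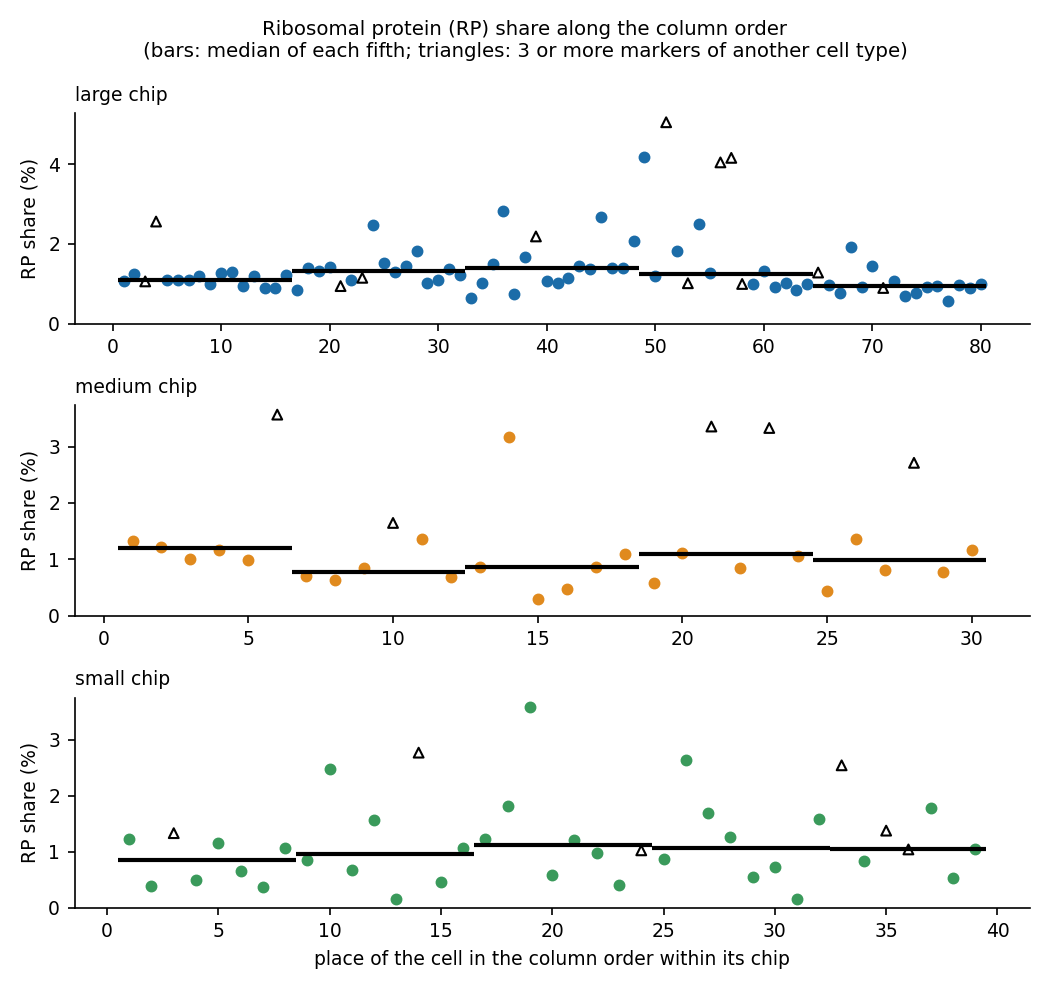
Ribosomal protein share (%) of each cell by its place in the column order within the large, medium and small chips. Bars are medians of 5 successive blocks, and triangles are cells with 3 or more markers of another cell type; the large-chip medians run 1.09%, 1.32%, 1.39%, 1.24% and 0.934%.

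Among the 12 were Rpl10, which joins the large subunit late in its assembly, Rpl14, Rpl18, Rpl27a, Rpl36, Rpl38, Rpl5, Rpl7l1, Rps15, Rps16 and Rps27a, which is made as a fusion with ubiquitin. Rpl18 had the lowest mean (-0.29 ± 0.10, SD over 3 chips), and among the other low ones were Rpl38 (-0.29 ± 0.055) and Rpl36 (-0.26 ± 0.071). At the other end Rps27 (0.031 ± 0.31), Rps23 (0.013 ± 0.15), Rpl17 (0.0077 ± 0.066) and Rps19bp1 (0.0056 ± 0.061) lay about 0. The count of 12 rested on which cells were in: without those that hold other markers it was 49 (26.2% of all genes), with 0 rising (0.669%). With these cells left out and a spike-in share under 50% it was 19 (17.1%), with 1 rising (5.58%), and under 50% with them kept it was 4 (12.5%), with 3 rising (5.45%).

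Other genes of the translation machinery were read from lists of textbook members, by their rho with the spike-in share in the 64 large-chip cells under 50%. These cells mix the 57 of little spike-in, where the members had a median of 0.36, with others of the higher cluster. The lists are given over the mixed cells only. There the 81 ribosomal protein genes had a median of 0.44 and all genes -0.029, and 72 members had 0.2 or more (16.3% of all genes) and 0 had -0.2 or less (18.1%). Without cells that hold other markers 68 had 0.2 or more (14.9%). The 4 ribosomal protein genes that the name rule leaves out had a median of 0.51, with Fau at 0.67, Gnb2l1 (Rack1) at 0.42 and Rpsa at 0.40. Among 18 measured elongation factors and other mRNAs with a 5′ terminal oligopyrimidine tract the median was 0.24, led by Eef1a1, which brings tRNA to the ribosome (0.66), and Tpt1 (0.50).

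Initiation factors (24 measured) had a median of 0.072, ribosome biogenesis genes (34 measured) -0.039 and regulators (15 measured, among them Mtor, Larp1, Myc and Trp53) -0.011, all near the median of all genes. Under the rule of 1 sign in all 3 chips over all cells, 15 of 18, 23 of 24, 32 of 34 and 14 of 15 genes of these 4 lists fell with the spike-in share and 0 rose, where 87.9% of all genes fell. Along the column order 7 of the 18 elongation and oligopyrimidine-tract genes fell, with Eef1a1 at a mean of -0.31, as did 3 of the 4 ribosomal protein genes outside the name rule (15.4% of all genes).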

How the data were processed

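RNA was measured in 149 single cells of 1 mouse. The authors deposited 1 table of expected counts after normalisation, with values used here as a signal. CASAVA 1.8.2, Bowtie 0.12.9, RSEM 1.2.3 and the mm10 build are named in the submitters' processing notes. The name of the deposited table carries the words SCnorm and Wavecrest. How values were normalised and columns ordered is not described further in the sources used here. All columns were mapped to labelled cells (0 left unused). Depth per cell is unknown, so no counting interval is given.

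The share of a cell is the sum over members divided by the sum over mouse genes, 92 spike-ins left out. Genes above 0 in at least 20% of cells (8813) formed the background. Spearman rho was computed within each chip and averaged over the 3 chips. A gene was counted along a measure when its sign was the same in all chips and its mean rho was 0.2 or more in size, and between chips when the log2 ratio of mean + 1 was 1 or more. The genes named are the 4 highest and 4 lowest members by each measure, the paralogs, the stalk and 6 members with textbook roles; a few that the rule names are not reported here. Rpl10, Rpl36a, the genes named by co-variation or by rho within the large-chip clusters, and the single cells were chosen after their values were seen. Members and lists were chosen with earlier results of these data known. The split at 10% spike-in, the omission of each gene's highest cells, and the omission of cells with other markers for members along spike-in share and column order, co-variation, spread and, under 50% spike-in, chips were added after seeing the data. Statistics were checked on simulated data. No test and no doublet caller was run. Coding lengths and positions come from GENCODE M21. Computation used scipy 1.17.1, pandas 2.3.3 and numpy 2.4.6 under Python 3.11.15, with matplotlib 3.10.9 for figures.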

Additional observations from a re-analysis of the deposited data

How the results depend on the processing

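No paired analysis was possible because the replicate numbers only name cells and no test was run. Of 88 alternative values of the main results, 56 stayed within 1.5 times for counts or within the spread between cells or chips for other values, 29 moved beyond that and 3 more turned in sign. The mean rho of the share with spike-in lies within its spread but was -0.20 without the large chip and 0.32 without the medium chip. That spread, an SD of 0.55 over chips, is wide. By it the large-chip rho counts as unmoved although it was 0.73 for shares and 0.39 for summed values. With cells under 50% spike-in, the median shares were 1.07% in the large and 1.17% in the medium chip, 4 members were higher and 8 lower in the large than in the small chip, 21 rose and 0 fell with the spike-in share, 3 rose and 4 fell along the column order, and the medium-chip spread turned to 0.20. Leaving out cells with other markers as well gave 17 members higher and 9 lower in the large than in the small chip. Without the 20 highest genes the median shares were 2.09%, 1.97% and 2.20% for large-chip, medium-chip and small-chip cells. Without cells holding other markers they were 0.866% in the medium and 0.973% in the small chip, 49 members fell along the order, and large-chip co-variation was 0.36. Summed values in place of shares gave a mean rho with spike-in of -0.45. Rescaling gave 19 members higher and 3 lower in the large than in the small chip and large-chip co-variation of 0.34. The mean of log2 values gave 80 higher, and leaving out the highest cells 50. Pearson r gave 80 members falling with the spike-in share, 7 along the order and co-variation of 0.51. Without the large chip 80 fell with the spike-in share. Without the small chip 19 fell along the order, and with genes above 0 held constant 1 did. The SD of log2(value + 1) turned the spread to -0.17, 0.23 and 0.42 for large-chip, medium-chip and small-chip cells, and log2(value + 10) to -0.12, 0.11 and 0.21. In large-chip cells of 10% spike-in or more the rho of the share with spike-in was -0.16. The causes of these shifts were not tested. Read depth is unknown, so values of 0 carry no limit, and 7 medium-chip and 12 small-chip cells stand behind the values under 50% spike-in.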
